A study of Mus musculus with 16 samples.

Results

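Transcription factors that lay down position in the embryo, other than the Hox genes, were followed in a pair of mouse fibroblast lines for 20 days after induction of Cre. The set holds 10 genes of the 24485 gene IDs measured: Sim2, Alx1, Meis1, Meis2, Tbx5, Tbx15, Prrx1, Twist1, Hand2 and Gata2. They were chosen by name from earlier results of these data, in which several of them differed between the lines, so the differences between the lines are given below as a description and are not tested. What was tested is whether each level, and the difference between the lines, changed with time. Both lines are immortalized mouse embryonic fibroblasts, which are fibroblasts taken from an embryo and made able to divide without limit, and the labels give neither the part of the embryo nor its stage. The exp line is R26M2rtTA/+;TetOcre;Sdhcfl/fl, with both copies of Sdhc floxed, and the ctl line is R26M2rtTA/+;TetOcre;Sdhcfl/wt, with 1 floxed and 1 wild-type copy. In both of them a doxycycline-dependent transactivator at the Rosa26 locus (R26M2rtTA) drives a Cre recombinase transgene (TetOcre), and both received doxycycline at 1 µg/mL. The Sdhc protein anchors succinate dehydrogenase, a citric acid cycle enzyme, in the mitochondrial membrane. RNA was sequenced on days 0, 5, 9, 12, 16 and 20 after doxycycline, in triplicate for each line at day 16 and as 1 library on every other day, which makes 16 libraries. With 1 line per genotype, genotype, line of origin and the sex-linked difference given below cannot be told apart. The p-values measure the spread between libraries of these lines.

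Patterning factors mark where in the embryo a mesenchymal cell comes from. Limb, face, heart, trunk and body wall each use their own combination of homeodomain, T-box and basic helix-loop-helix (bHLH) factors, and cultured fibroblasts are known to keep much of that combination. T-box and homeodomain proteins bind DNA through the domain they are named for. Many bHLH proteins bind the E-box as dimers with a partner. Meis proteins belong to the TALE homeodomain family and act as cofactors of Hox and Pbx proteins.

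Depth was 18121520 to 42486438 reads in genes per library. The values are FPKM, a read count scaled to transcript length and library size, so levels of different genes can be set side by side on a scale that allows for length. All 11 fibroblast markers reached 1 FPKM in at least 1 library of each line. They summed to 3050 to 4500 FPKM in exp libraries and 2990 to 3490 FPKM in ctl libraries. Thy1 and Lum had medians of 0.702 and 0.964 FPKM in ctl, against 1.86 and 1.88 FPKM in exp. Of the 11, 3 were higher and 1 lower in exp without overlap, beside 5.5% and 4.65% of all genes. Col1a2, Col3a1 and Dcn had medians of 640, 261 and 32.3 FPKM in exp, against 90, 94.9 and 3.34 FPKM in ctl. Pdgfra had 19.1 FPKM in exp and 50.9 FPKM in ctl. Of the marker lists of other cell types, Pecam1 and Cdh5 of endothelium, Ptprc, Gata1 and Tal1 of blood, Myod1 and Myog of skeletal muscle, and Sox10 and Foxd3 of neural crest lay under 0.1 FPKM in all 16 libraries. Others on the same lists did not: Cd34 had 13.6 to 33.9 FPKM in exp and 41.5 to 109 FPKM in ctl, Runx1 2.18 to 6.46 and 3.81 to 4.53, Cd68 2.59 to 5.91 and 4.65 to 6.32, and Egfl7 4.74 to 9.95 and 3.13 to 3.74. Lyl1 reached 1.72 FPKM in exp and 1.08 FPKM in ctl, and S100b 0.276 FPKM and 1.18 FPKM. Summed over their lists, blood markers held 22.8 to 44.9 FPKM in exp and 53.4 to 119 FPKM in ctl, endothelial markers 6.21 to 10.6 and 3.92 to 4.40 FPKM, muscle markers 0.167 to 0.360 and 0.185 to 0.336 FPKM, and crest and glial markers 0.499 to 1.24 and 0.977 to 2.0 FPKM. Mesothelial markers (6 genes) and epithelial markers (7 genes) differed between the lines and among the exp libraries. They summed to 86.6 to 1080 FPKM and 9.27 to 157 FPKM in exp, against 97.2 to 127 FPKM and 1.44 to 2.11 FPKM in ctl, and all 6 mesothelial genes reached 1 FPKM in an exp library against 2 in a ctl library. Most of the ctl mesothelial sum was Msln, at 84.8 to 121 FPKM. Upk3b, Upk1b, Lrrn4 and Gpm6a were at or above 1 FPKM in all exp libraries and in no ctl library. Of the 6 genes, 5 were higher in exp without overlap, beside 5.5% of all genes, and Msln overlapped. On the epithelial list Krt14, Krt18 and Krt8 reached 107, 41.5 and 7.76 FPKM in exp. Epcam reached 0.357 FPKM in exp and 0.225 FPKM in ctl, and Krt5 and Cldn4 stayed under 0.1 FPKM. Cdh1 had medians of 0.922 FPKM in exp and 1.19 FPKM in ctl. Day 16 replicates 2 and 3 stood apart from replicate 1 in both lines, most of all in exp. Across genes, exp replicates 2 and 3 correlated at 0.9954 with each other and at 0.9521 and 0.9541 with replicate 1, which lay closest to exp day 20 at 0.9928. In the ctl line the same correlations were 0.9973 for replicates 2 and 3, and 0.9787 and 0.9807 with replicate 1. Results are therefore given with and without day 16 replicates 2 and 3. Sdhc itself, the targeted gene, averaged 32.0 ± 5.23 FPKM in exp and 49.4 ± 1.66 FPKM in ctl at day 16 (SD, n = 3 each). Its difference was -0.62 log2 at day 16 and -0.04 log2 at day 0.

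Sequence upstream of the start was at hand, from RefSeq on build GRCm38.p6, for 6 of the 10 genes: Prrx1, Meis2, Gata2 (with 2 starts), Hand2, Meis1 and Twist1. Those of Hand2 and Meis1 are shown because these genes had the largest fold between the lines in each direction among the 6. Each run is the 250 bases before the annotated start, read 5′ to 3′ on the gene's own strand, at chr8:57320733-57320982 (plus strand) for Hand2 and chr11:19018970-19019219 (minus strand) for Meis1. Capitals mark E-boxes, the motif CANNTG that bHLH proteins such as Hand2 and Twist1 bind.
Hand2: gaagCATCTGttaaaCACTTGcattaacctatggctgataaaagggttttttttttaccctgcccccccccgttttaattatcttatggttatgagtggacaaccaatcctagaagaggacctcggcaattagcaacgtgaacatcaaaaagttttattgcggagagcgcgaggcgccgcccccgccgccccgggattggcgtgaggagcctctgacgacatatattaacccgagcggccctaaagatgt
Meis1: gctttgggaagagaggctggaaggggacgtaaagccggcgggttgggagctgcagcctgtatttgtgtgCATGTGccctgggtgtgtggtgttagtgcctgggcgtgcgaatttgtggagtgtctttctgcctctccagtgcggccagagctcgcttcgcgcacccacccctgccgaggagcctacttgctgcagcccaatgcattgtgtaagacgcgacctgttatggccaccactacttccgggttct
The Hand2 window held 2 E-boxes, Meis1 held 1, and the windows of the other members held none. An E-box occurred in 66.2% of 32851 mouse promoter windows of this length, searched on both strands. The homeodomain motif TAATTA occurred once each in Hand2 and Prrx1 (4.84% of windows), the GATA motif AGATAA once in Hand2 (9.99%), and the T-box motif AGGTGT once in Twist1 (11.8%). TGACAG, the Meis motif, matched none of the members' windows and 15.9% of all windows. Counts of CG dinucleotides ran from 4 in Prrx1 and 7 in Meis2 to 22 and 24 at the Gata2 starts, with 13 in Meis1, 15 in Hand2 and 18 in Twist1, against a median of 6 over all windows.

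Sim2, Alx1 and Meis1 were low in exp and high in ctl, in every library of both lines. Sim2, a bHLH-PAS factor that mice need to form the palate, lies at chr16:94086061-94347498 (plus strand) in mm9. It had a lowest, median and highest level of 0.854, 1.46 and 2.18 FPKM in exp, against 73.3, 83.3 and 86.3 FPKM in ctl. The exp values rested on 92 to 188 reads per library and the ctl values on 7888 to 12314. Its median was 57.1-fold lower in exp, and the lowest ctl library exceeded the highest exp library 33.6 times. The difference was -4.92 log2 at day 0 and stayed between -5.5 and -4.77 over the 8 pairs of libraries, on the log2(FPKM + 1) scale, which understates changes of low genes. In bulk RNA, fewer cells that make a transcript and less transcript per cell cannot be told apart.

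Alx1, a paired-type homeodomain factor of head mesenchyme that mice need to close the cranial neural tube, lies at chr10:102470481-102491685 (minus strand). In exp it had 0.181, 0.199, 0.131 and 0.196 FPKM at days 0, 5, 9 and 12, then 0.403, 1.47 and 1.18 FPKM in day 16 replicates 1, 2 and 3, and 0.510 FPKM at day 20. In ctl it had 18.3, 19.3, 17.7 and 21.3 FPKM at days 0 to 12, 19.3, 15.5 and 16.3 FPKM at day 16 and 20.3 FPKM at day 20. The lines did not overlap, with the lowest ctl library 10.6 times the highest exp library, and the exp values up to day 12 rested on 8 to 11 reads. The highest exp values were those of day 16 replicates 2 and 3, with 144 and 123 reads.

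Meis1, a TALE homeodomain cofactor of Hox proteins used in the proximal limb and in blood-forming cells, lies at chr11:18780433-18918961 (minus strand). It had a lowest, median and highest of 0.671, 0.865 and 1.06 FPKM in exp, against 7.45, 8.68 and 8.89 FPKM in ctl. At day 16 it averaged 0.777 ± 0.0433 FPKM in exp and 8.65 ± 0.151 FPKM in ctl (SD, n = 3 each). The difference of -2.24 log2 at day 0 kept between -2.57 and -2.03 throughout. The annotation places Gm16140 and Gm16141 on the opposite strand over Meis1. Neither has a row in the files, and the strand setting of the counts is not given, so their reads could not be told apart from those of Meis1. RefSeq also lists loci without a row in the files that overlap Sim2, Alx1, Meis2, Tbx5, Tbx15, Prrx1 and Gata2.

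**Figure D1:**
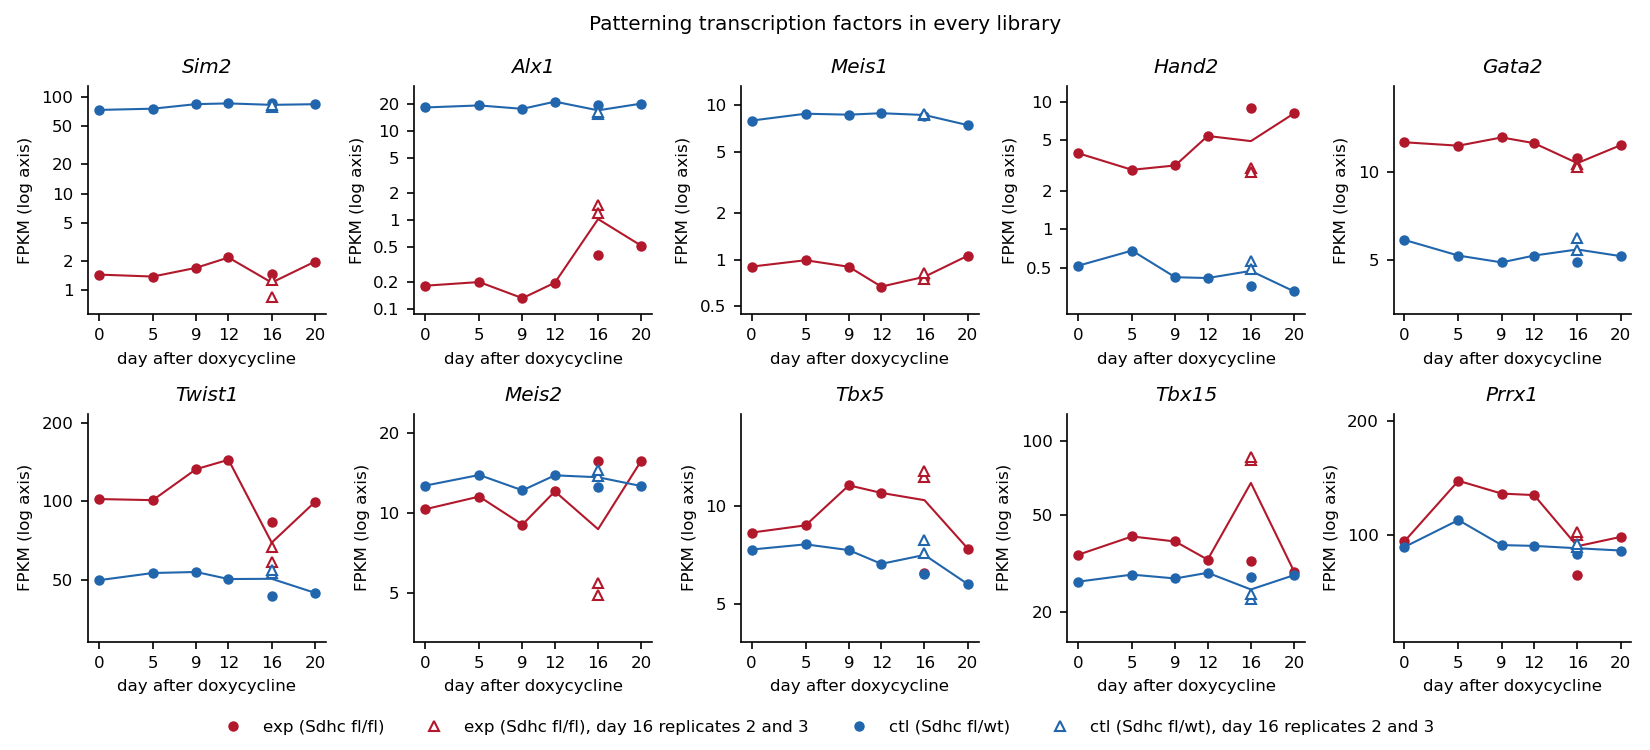
FPKM (log axis) of each of the 10 factors by day after doxycycline, with exp in red and ctl in blue, open triangles for day 16 replicates 2 and 3, and lines through the day means. Sim2, Alx1 and Meis1 lie lower in all 8 exp libraries, Hand2, Gata2, Twist1 and Tbx15 lie higher, and Meis2, Tbx5 and Prrx1 overlap.

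Hand2, Gata2, Twist1 and Tbx15 were higher in exp, with no overlap between the lines. Hand2, a bHLH factor of the heart, the pharyngeal arches and the posterior limb bud, lies at chr8:59799780-59803314 (plus strand). In exp it had 3.97, 2.94, 3.18 and 5.42 FPKM at days 0, 5, 9 and 12, then 8.93, 3.04 and 2.85 FPKM in day 16 replicates 1, 2 and 3, and 8.17 FPKM at day 20. In ctl its lowest, median and highest values were 0.325, 0.453 and 0.681 FPKM, from 21 to 54 reads. The exp median was 7.90 times that of ctl, and the lowest exp library exceeded the highest ctl library 4.18 times. The highest exp values were in day 16 replicate 1 and at day 20, the libraries where the mesothelial markers summed to 1080 and 961 FPKM, against 86.6 to 304 FPKM in the other 6 exp libraries. The sum of the epithelial list, in which Epcam, Krt5 and Cldn4 stayed low, was highest there too, at 157 and 121 FPKM against 9.27 to 61.8 FPKM. The part of either marker list in the Hand2 values was not tested. The long non-coding RNA Hand2os1 starts beside Hand2 and is counted under an ID of its own.

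Gata2, a zinc-finger factor of blood progenitors, endothelium and the urogenital tract, lies at chr6:88143885-88157024 (plus strand). It had a lowest, median and highest of 10.4, 12.3 and 13.1 FPKM in exp, against 4.91, 5.18 and 5.94 FPKM in ctl. Its day 16 means were 10.7 ± 0.402 FPKM in exp and 5.44 ± 0.499 FPKM in ctl (SD, n = 3 each), and its difference stayed between 0.75 and 1.26 log2 over the 8 pairs. Its highest exp library was 1.27 times its lowest, and its highest ctl library 1.21 times. The blood and endothelial marker levels given above were measured in the same libraries. Of the 4 blood markers with a mean of at least 1 FPKM, 1 (Cd34) was lower in exp without overlap and none was higher. Egfl7, the 1 endothelial marker with such a mean, was higher without overlap, as Gata2 was. The part of such cells in the Gata2 values was not tested.

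Twist1, a bHLH factor of cranial neural crest and limb mesenchyme, lies at chr12:34642536-34644682 (plus strand). In exp it had 102, 101, 133 and 144 FPKM at days 0, 5, 9 and 12, then 83.3, 66.9 and 58.5 FPKM in day 16 replicates 1, 2 and 3, and 99.5 FPKM at day 20. In ctl its lowest, median and highest were 43.6, 51.9 and 54.6 FPKM. The lines came close at day 16, where exp replicate 3 at 58.5 FPKM was 1.07 times the highest ctl library, and were furthest apart at day 12, at 1.5 log2.

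Tbx15, a T-box factor of the dorsal dermis and the limb skeleton, lies at chr3:99044304-99158182 (plus strand). In exp it had 34.2, 40.7, 38.8 and 32.7 FPKM at days 0 to 12, 32.4 FPKM in day 16 replicate 1, 83.6 and 86.6 FPKM in replicates 2 and 3, and 29.2 FPKM at day 20. In ctl its lowest, median and highest were 22.6, 27.6 and 28.9 FPKM. The separation was narrow outside those replicates, since the lowest exp library was 1.01 times the highest ctl library and the difference at day 20 was 0.05 log2.

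Thus 4 of the 10 genes were higher in all exp libraries and 3 were lower, against 5.5% and 4.65% of the 12559 genes with a mean of at least 1 FPKM. Since the set was chosen for differences of this kind, nothing is read from those shares. The signs were present at day 0 for all 7.

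The levels of the other 3, Meis2, Tbx5 and Prrx1, overlapped between the lines. Prrx1, a homeodomain factor of limb bud and craniofacial mesenchyme, lies at chr1:165175247-165243841 (minus strand), where Gm20471 runs on the other strand. The long non-coding RNA Gm17698 overlaps Prrx1 on the same strand. Neither has a row in the files, so their reads could not be told apart from those of Prrx1. Prrx1 had a lowest, median and highest of 78.8, 101 and 139 FPKM in exp, against 89.3, 93.5 and 110 FPKM in ctl, the highest median of the set in both lines. Its day 16 means of 93.5 ± 12.8 FPKM in exp and 92.4 ± 2.71 FPKM in ctl (SD, n = 3 each) differed by less than the replicates of exp did. Tbx5, the T-box factor of forelimb and heart, lies at chr5:120284672-120335227 (plus strand). It had 6.26, 9.86 and 12.8 FPKM (lowest, median and highest) in exp and 5.77, 7.27 and 7.85 FPKM in ctl, and was higher in exp in 8 of 8 pairs by 0.01 to 0.75 log2.

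Meis2, the paralog of Meis1 and likewise a TALE cofactor, lies at chr2:115688800-115891575 (minus strand). In contrast to Meis1 it was well expressed in both lines. In exp it had 10.3, 11.5, 9.06 and 12.1 FPKM at days 0 to 12, 15.7, 5.49 and 4.94 FPKM in day 16 replicates 1, 2 and 3, and 15.8 FPKM at day 20, against a lowest, median and highest of 12.2, 13.2 and 14.6 FPKM in ctl. Exp libraries lay both above and below all ctl libraries, so the day 16 difference was 0.30 log2 in replicate 1 and -1.29 log2 in replicates 2 and 3.

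**Figure D2:**
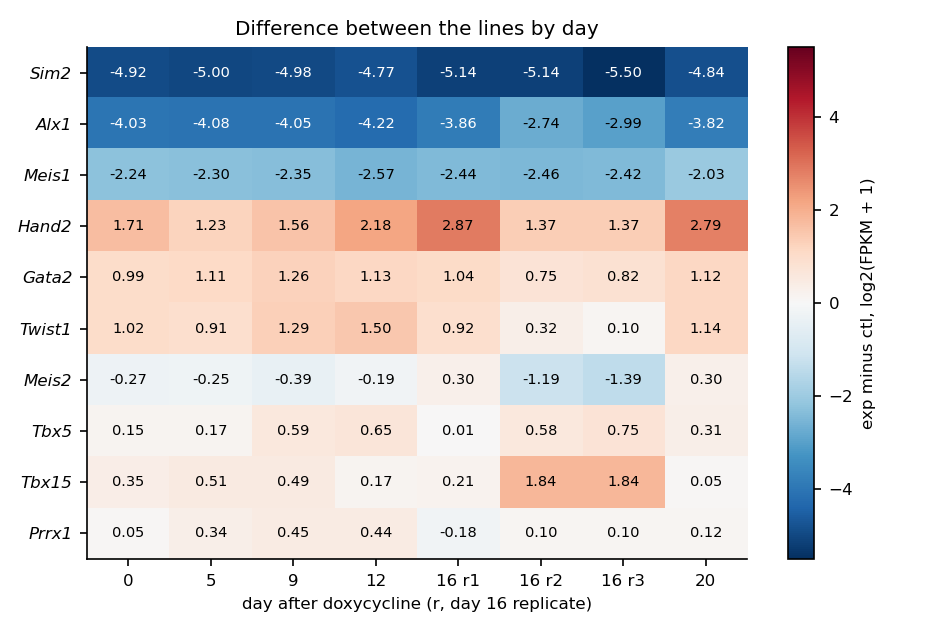
Exp minus ctl difference of each factor on the log2(FPKM + 1) scale, by day and day 16 replicate, blue for lower and red for higher in exp, with the value in each cell. Sim2 stays between -5.5 and -4.77 in all 8 columns, while Meis2 and Tbx15 change most between day 16 replicate 1 and replicates 2 and 3.

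The day 16 replicates of exp split the set. Relative to replicate 1, the mean of replicates 2 and 3 was 3.29 times as high for Alx1, 2.63 times for Tbx15 and 2.0 times for Tbx5. Replicate 1 was in turn 3.04 times as high as that mean for Hand2 and 3.01 times for Meis2. The same ratios stayed near 1 in exp for Meis1 (1.05) and Gata2 (0.941). In ctl the mean of replicates 2 and 3 over replicate 1 ran from 0.823 for Alx1 to 1.24 for Twist1, apart from 1.47 for the low Hand2. The factors therefore varied more among exp libraries than among ctl libraries: the range over 8 libraries on the log2(FPKM + 1) scale had a median of 1.03 in exp and 0.30 in ctl over the set, and of 0.60 and 0.33 over all genes tested. On that scale, which narrows the range of low genes, the range in exp was 1.54 for Tbx15, 1.5 for Meis2, 1.37 for Hand2 and 1.29 for Twist1. As a ratio of FPKM, highest over lowest, the widest in exp was the low Alx1 at 11.2, followed by Meis2 at 3.19, Hand2 at 3.14, Tbx15 at 2.97 and Sim2 at 2.55, and the widest in ctl was Hand2 at 2.1.

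**Figure D3:**
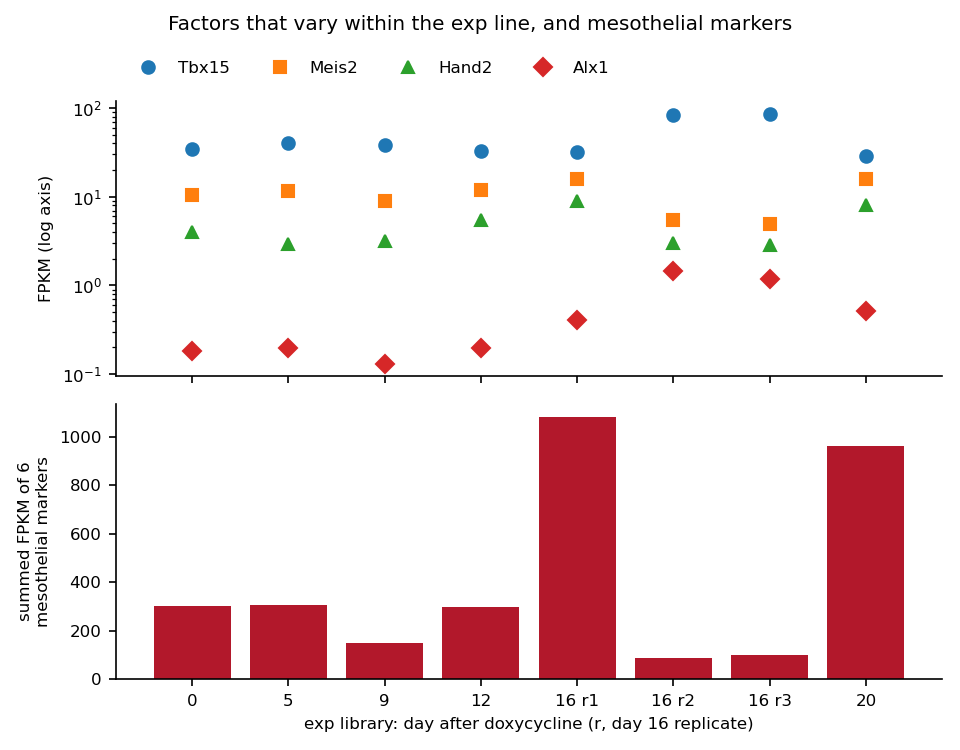
Upper panel, FPKM (log axis) of Tbx15, Meis2, Hand2 and Alx1 in each exp library. Lower panel, the summed FPKM of 6 mesothelial markers in the same libraries, highest in day 16 replicate 1 (1080) and day 20 (961), where Hand2 and Meis2 are also highest.

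By median level the order in exp was Prrx1 (101 FPKM), Twist1 (100), Tbx15 (36.5), Gata2 (12.3), Meis2 (10.9), Tbx5 (9.86), Hand2 (3.58), Sim2 (1.46), Meis1 (0.865) and Alx1 (0.301). Neighbours in that order overlapped in range except Tbx15 over Gata2 and Hand2 over Sim2. In ctl the order was Prrx1 (93.5 FPKM), Sim2 (83.3), Twist1 (51.9), Tbx15 (27.6), Alx1 (18.8), Meis2 (13.2), Meis1 (8.68), Tbx5 (7.27), Gata2 (5.18) and Hand2 (0.453). There the neighbours that overlapped were Meis1 with Tbx5 and Tbx5 with Gata2. Prrx1, Twist1 and Tbx15 thus ranked high in both lines, with Sim2 placed among them in ctl and near the bottom in exp.

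Whether these levels held over 20 days was tested with limma on all 16 libraries, as a slope in log2(FPKM + 1) per 20 days. None of the 10 slope differences between the lines passed (0 of 10, also 0 at an unadjusted p under 0.05, where 11.1% of genes were, and 0 by limma voom), where 0.207% of genes did (0.183% with a positive and 0.0239% with a negative slope difference). The largest estimates were for Hand2, at 0.94 ± 0.64 (SE; 95% interval -0.47 to 2.34; limma adjusted p = 0.638), and Alx1, at 0.82 ± 0.47 (-0.22 to 1.85; adjusted p = 0.564). The tightest were those of Gata2, at -0.13 ± 0.19 (-0.54 to 0.29), and Meis1, at -0.02 ± 0.20 (-0.47 to 0.43). Sim2 had -0.18 ± 0.25 (-0.73 to 0.37), beside a line difference of -4.92 log2 at day 0. The intervals of Tbx15 (-1.09 to 2.12) and Meis2 (-1.58 to 1.40) leave changes of over 1 log2 possible in either direction. Those of Twist1 (-1.35 to 0.55), Tbx5 (-0.66 to 1.16) and Prrx1 (-0.72 to 0.35) lay between.

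Within exp, 4.95% of genes passed (1.36%, or 171 genes, rising and 3.59%, or 451, falling) and none of the 10 factors did, at 1 of 10 with an unadjusted p under 0.05 (23.6% of all genes) and 0 by limma voom. That gene was Alx1, with a slope of 0.78 ± 0.30 (95% interval 0.14 to 1.43; limma adjusted p = 0.132). Its highest exp values were those of day 16 replicates 2 and 3, at 1.47 and 1.18 FPKM. Without these replicates the Alx1 slope difference between the lines was 0.23, against 0.82 with them. Hand2 had 0.75 ± 0.41 (-0.12 to 1.62; limma adjusted p = 0.281). Without day 16 replicates 2 and 3 its exp slope was 1.28 and passed (limma adjusted p = 0.0336), in a fit where 3.11% of genes rose. The highest exp values in that fit were those of day 16 replicate 1 and day 20, where the mesothelial markers were also highest. Twist1 had -0.53 ± 0.33 (adjusted p = 0.353), Prrx1 -0.31 ± 0.21 (0.392), Tbx15 0.42 ± 0.47 (0.612) and Gata2 -0.19 ± 0.12 (0.376), all by limma, and the slopes of Sim2, Meis1, Meis2 and Tbx5 lay between -0.05 and 0.02. After median-of-ratios rescaling, which moved the median exp slope of all genes by over 0.1 (0.02 against -0.09 log2), 263 genes rose and 157 fell, and again no member passed. In ctl the slopes of the 10 factors lay between -0.23 for Tbx5 and 0.19 for Sim2. None passed by limma, nor did any other gene (0% of 12559, with 203 genes at an unadjusted p under 0.05 and 0 calls by limma voom). The fit shares its spread between the lines, so the ctl slopes carry the wider scatter of exp. For Tbx15 the SE was 0.47 in both lines, beside log2 ranges over 8 libraries of 1.54 in exp and 0.34 in ctl. The absence of ctl calls therefore does not show that ctl levels held. The gene counts themselves turned on single libraries: against 26 slope differences in all there were 2 without exp replicate 2, 10 without exp replicate 3, 12 without ctl replicate 2 and 7 without ctl replicate 3. Against 622 exp slopes there were 249, 303 and 289 without exp replicates 1, 2 and 3, 366 without ctl replicate 1, and 1036 with the replicate number as a block.

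**Figure D4:**
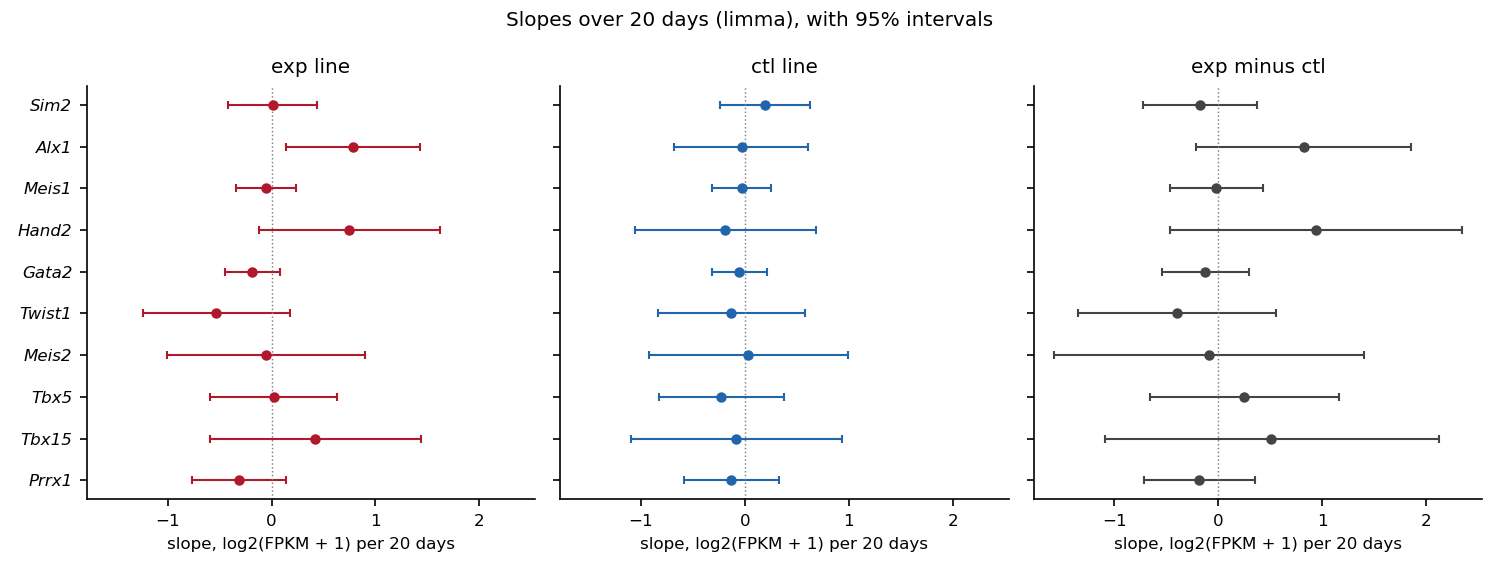
Slopes of the 10 factors in log2(FPKM + 1) per 20 days from limma, with 95% intervals, for exp, ctl and exp minus ctl. In the exp minus ctl panel all 10 intervals cross 0, and in exp that of Alx1 alone (0.14 to 1.43) does not.

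Transcripts of partners and relatives of these factors were found in both lines. Of 9 other TALE genes, which are the Pbx genes and further members of the family, 8 had at least 1 FPKM in all 16 libraries. The lines overlapped for all 9. None was called at day 16 or for a slope by limma as described. With the replicate number as a block 1 was lower at day 16 (8.16% of all genes called) and 1 fell in exp (8.25%). By limma voom, which called 813 genes at day 16, 1 was lower there. Without day 16 replicates 2 and 3, where 814 exp slopes were called over all genes, 2 fell in exp. From day 16 replicates 2 and 3 alone 1 was higher and 4 were lower, where 17.7% and 16.9% of all genes were. Without exp replicate 1 there were 1 higher and 1 lower (7.28% and 5.55% of all genes). Meis3, the other Meis gene, had a lowest, median and highest of 0.977, 1.75 and 4.92 FPKM in exp and 2.60, 2.84 and 4.2 FPKM in ctl. Of 10 bHLH partners and inhibitors, 2 were higher and 2 lower in exp without overlap, beside the 5.5% and 4.65% of all genes given above. None was called at day 16, whereas the fit with the block called 1 higher and 3 lower there and 1 rising in exp, and limma voom called 1 lower at day 16. From day 16 replicates 2 and 3 alone 3 were higher and 4 lower, and without exp replicate 1 there were 1 and 2. The inhibitors Id1 and Id3, which bind bHLH proteins and keep them off DNA, had medians of 222 and 549 FPKM in exp, against 34.6 and 213 FPKM in ctl. Tcf4, an E-protein that dimerizes with Twist1 and Hand2, had a median of 28.5 FPKM in exp and 49.9 FPKM in ctl, and Arnt2, a partner of Sim2, 2.62 FPKM and 7.82 FPKM. The general Sim2 partner Arnt overlapped, at 34.1 FPKM in exp and 34.0 FPKM in ctl. The median day 16 differences of -0.09 log2 over these TALE genes and -0.05 log2 over the bHLH list were near the -0.01 log2 of all genes.

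Other patterning factors were sorted by the region they are known for. At day 16 limma called 6.1% of genes, 3.1% higher and 3.01% lower in exp. Of 16 limb mesenchyme factors, 12 passed the filter of a mean of at least 1 FPKM, and of these 5 were higher and 2 lower, with a median of 0.84 log2 against -0.01 log2 for all genes. Genes high in 1 line alone can pass that filter, which genes low in both do not, so these counts and medians are descriptions. Pitx1, Tbx4 and Six2 passed it in this way, being under 1 FPKM in every ctl library. The lists were also chosen with earlier results of these data known. The day 16 p-values of listed genes are therefore given as descriptions and are no independent test. With no filter, 733 genes were called at day 16, against 765 with it. Then 15 limb factors entered, of which 3 were called higher and 2 lower. Of the region lists described below, 2 of 18 craniofacial, 2 of 13 heart and visceral and 1 of 14 somite factors were called higher without it. None of those was called lower. Pitx1 and Tbx4, hindlimb factors in the mouse, were at or above 1 FPKM in all 8 exp libraries and in no ctl library. Pitx1 averaged 3.81 ± 0.598 FPKM in exp and 0.0403 ± 0.0236 FPKM in ctl at day 16 (SD, n = 3 each; 2.2 ± 0.13 log2, SE, limma adjusted p = 0.000784). Tbx4 averaged 2.98 ± 0.772 FPKM in exp and 0.159 ± 0.0649 FPKM in ctl (limma adjusted p = 0.00443). Tbx5, the forelimb factor, was above 1 FPKM beside them in exp and also in ctl, where Pitx1 and Tbx4 were not. Msx1, a homeodomain factor of distal limb and face, averaged 64.4 ± 23.3 FPKM in exp and 9.22 ± 0.753 FPKM in ctl (limma adjusted p = 0.00376), and Emx2, of the scapula and urogenital tract, 4.10 ± 0.414 FPKM and 8.68 ± 0.541 FPKM (limma adjusted p = 0.00416). Tbx3, a limb bud margin factor, had medians of 0.802 FPKM in exp and 9.23 FPKM in ctl.

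Among 18 craniofacial and neural crest factors, 11 passed the filter, of which 3 were higher in exp and none lower, with a median of 0.00 log2. Tfap2a, a crest factor, averaged 8.84 ± 1.94 FPKM in exp and 2.02 ± 0.219 FPKM in ctl (limma adjusted p = 0.00443), and its paralog Tfap2b 11.7 ± 2.71 FPKM and 2.51 ± 0.900 FPKM (limma adjusted p = 0.0119). The third was Six2 (limma adjusted p = 0.0359). Alx4, a relative of Alx1, lay under 1 FPKM in all 16 libraries. Of 13 heart and visceral mesoderm factors, 9 passed at day 16 and 1 was higher, Foxf2 of gut and facial mesenchyme, at 6.83 ± 0.201 FPKM in exp and 4.19 ± 0.137 FPKM in ctl (limma adjusted p = 0.00741), with a list median of 0.73 log2. Wt1 and Tcf21, factors of mesothelium and visceral mesenchyme, were at or above 1 FPKM in all exp libraries and in no ctl library. In exp Wt1 had a median of 8.72 FPKM and a range of 2.1 to 28.2 FPKM. Tcf21 had a median of 2.11 FPKM there and a range of 1.06 to 12.6 FPKM, so its lowest library was near the 1 FPKM mark. The share of all genes with such a pattern was not counted for any of the lists. Wt1 is itself made by mesothelium, whose markers differed between the lines as given above. Nkx2-5, the heart muscle factor, stayed under 1 FPKM throughout. Of 15 somite and paraxial mesoderm factors, 7 passed and 1 was higher, En1 (limma adjusted p = 0.0426), with a median of 0.24 log2. Zic1 and Meox2 reached 1 FPKM in all exp libraries and in no ctl library, whereas Pax9 did so in all ctl libraries and in no exp library, with medians of 0.378 FPKM in exp and 6.14 FPKM in ctl. Tcf15, Meox1, Pax1, Pax7, Uncx and Sim1 were under 1 FPKM in every library.

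**Figure D5:**
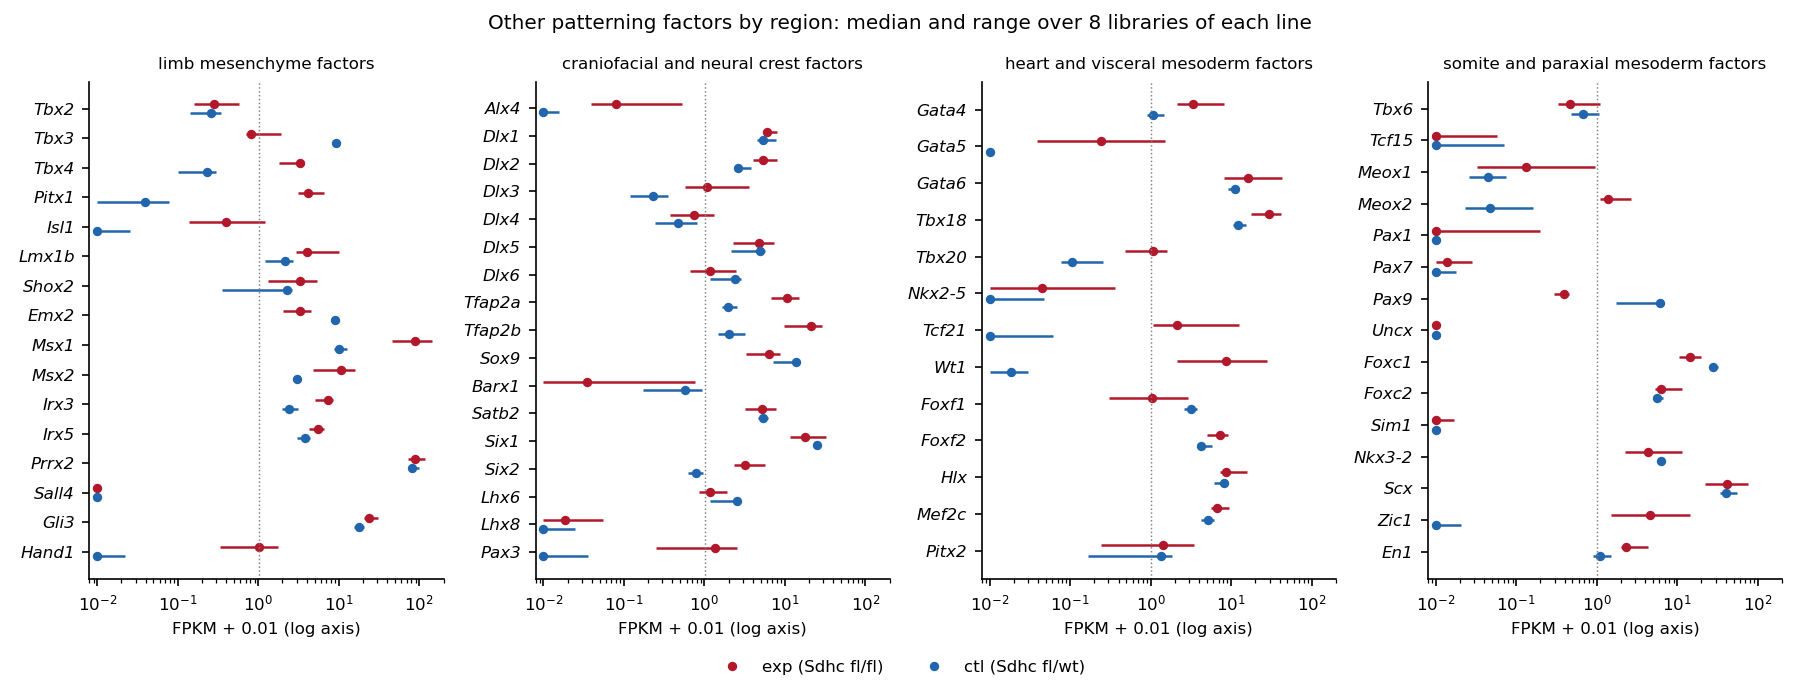
Median (points) and range (bars) over 8 libraries of exp (red, above) and ctl (blue, below) for patterning factors of limb, face, heart and viscera, and somites, on a log axis of FPKM + 0.01 with a dotted line at 1 FPKM. Pitx1, Tbx4, Six2, Wt1, Tcf21, Meox2 and Zic1 lie wholly above the line in exp and wholly below it in ctl, and Pax9 the reverse.

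The counts for these lists moved with the libraries used. So did the share of all genes: from day 16 replicates 2 and 3 alone 17.7% of genes were called higher and 16.9% lower, and without exp replicate 1 7.28% and 5.55%. From day 16 replicates 2 and 3 alone, 9 limb factors were higher and 2 lower, 7 and 2 of the craniofacial list, 7 and 1 of the heart and visceral list, and 3 and 3 of the somite list. Without exp replicate 1 they were 6 and 2, 6 and 0, 3 and 0, and 3 and 2, and without any other day 16 library 3 or 4 limb factors were higher and 2 lower, 1 or 2 craniofacial factors were higher, with 1 lower without ctl replicate 1, 0 or 1 heart and visceral factors were higher, and no somite factor was called. The calls of Pitx1, Msx1, Emx2, Tbx4 and Tfap2a held in every alternative of the day 16 fit that was run. Tfap2b was lost without exp replicate 3 or ctl replicate 3 (limma adjusted p = 0.0551 and 0.0549), and Foxf2 without exp replicates 2 or 3 or ctl replicates 2 or 3 (0.0511 to 0.0552). Six2 and En1 were lost without any day 16 library other than exp replicate 1 (limma adjusted p from 0.0692 to 0.137 and from 0.1 to 0.162), and also with a pseudocount of 5 or no filter. The block made 6 limb factors higher, in place of 5, and left the day 16 counts of the other region lists as they were. No listed factor of these regions was called for the slope difference, apart from 1 somite factor with a negative value under the block (0.295% of all genes called). Within exp, Foxf1 rose by 1.33 ± 0.34 log2 (limma adjusted p = 0.0388) and Scx, a tendon factor, fell by 1.38 ± 0.35 log2 (0.0404) per 20 days. Both calls were lost without day 0 (limma adjusted p = 0.160 and 0.334), without day 16 (0.162 for both) and without any of the 3 exp replicates (0.0546 to 0.0711 and 0.0517 to 0.0682). Foxf1 was also lost without days 5, 9 or 12 or ctl replicate 1 (0.0549 to 0.0680), and Scx without day 12 or ctl replicate 1 (0.0613 and 0.0559). Without the filter both missed the threshold too (0.0503 and 0.0553), as did Foxf1 with a pseudocount of 5 or by limma voom (0.0595 and 0.0602) and Scx after median-of-ratios rescaling (0.0627).

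For each factor the genes with the highest Pearson correlation over the 16 libraries, up to 2 a factor, were taken from 9604 genes with at least 5 FPKM in at least 3 libraries. The libraries of a line share the difference between the lines, so for factors far apart between the lines these values describe that difference and no p is given. Hoxa7 and Pkdcc were most like Sim2 (both 0.995), Adora2b (0.996) and Cyp1b1 (0.994) most like Alx1, and Hoxa2 (0.996) and Xist (0.995) most like Meis1. Hoxa7 had a lowest, median and highest of 2.21, 2.59 and 3.47 FPKM in exp and 16.4, 19.3 and 21.1 FPKM in ctl, and Hoxa2 0.466, 0.616 and 0.803 FPKM in exp and 6.45, 7.83 and 8.35 FPKM in ctl. Gata2 had Msx1os (0.986) and Kdm5d (0.985), Hand2 had Dcn (0.991) and Lpl (0.989), and Twist1 had Lhx2 and Boc (both 0.990). Xist, the RNA of the inactive X chromosome, had medians of 0.149 FPKM in exp and 75.7 FPKM in ctl, and the Y-linked Kdm5d 9.74 FPKM and 0.0149 FPKM. By these transcripts exp resembled a male line and ctl a female line. This sex-linked difference cannot be told apart from any other difference between the lines. Among the factors that overlapped between the lines or nearly so, Tbx15 was most like Cdh17 (0.968) and Calhm5 (0.923), Meis2 most like Ppp1r13b (0.972) and Arhgap18 (0.934), Tbx5 most like Lmx1b (0.919), and Prrx1 most like Rnf214 (0.915) and Gpsm2 (0.906). Lmx1b, which gives the limb its dorsal side, had a lowest, median and highest of 2.91, 4.07 and 10.2 FPKM in exp and 1.22, 2.11 and 2.67 FPKM in ctl, and Cdh17 2.43, 4.58 and 13.7 FPKM in exp and 2.23, 2.97 and 3.34 FPKM in ctl.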

How the data were processed

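RNA-seq libraries of the exp and ctl lines on 6 days were assigned to line and day by title. The authors deposited FPKM per gene, in a file for each library. The submitters' processing notes name Bowtie2 2.2.3 and the genome build mm9. How reads were counted, against which annotation and with which strand setting, is not given in the sources used here. A symbol was found for 24416 of the 24485 gene IDs. The members and gene lists were chosen with earlier results of these data known.

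Values were tested as log2(FPKM + 1) in limma 3.58.1 (R 4.3.3, statmod 1.5.0) with its trend and robust options. Genes under a mean FPKM of 1 were left out, tests were two-sided, and a call is a Benjamini-Hochberg adjusted p under 0.05 over all genes tested. The slope difference used a shared day factor, line and line by day. Slopes within the lines came from a joint fit of all 16 libraries with a shared spread, and the day 16 fit used 6 libraries. With a single library on most days, the spread comes mainly from day 16 and from departures from the slopes. Line differences of the members carry no p. Read recovery and the limma fits were tested on simulated data, without the split of the day 16 replicates or the wider spread of exp. The correlations, overlaps and motif counts were not tested in this way.

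Whole reads were recovered from the FPKM values for 18966 of 18966 genes with reads in at least 2 libraries, at a tolerance of 0.02 read (largest distance 0.000658), and used as depth and for limma voom. A gene listed at 0 allows up to 3 reads, counting error only. The replicate numbers come from the titles. Deviations of same-numbered exp and ctl libraries at day 16 correlated at 0.382, 0.271 and 0.338, all over 0.1, the level at which the numbers were taken to pair the samples. Exp replicate 3 correlated more with ctl replicate 2 (0.397), and exp replicate 2 with ctl replicate 3 at 0.206, so replicates 2 and 3 are set apart from replicate 1 but not matched to each other by number. A fit with the replicate number as a block is an alternative.

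Named genes are the 10 members, up to 4 genes per list and comparison with the smallest adjusted p under 0.05, the 2 genes most alike to each member, and defining genes at or near 0. Further list genes, such as Id1, Id3, Tcf4, Arnt, Arnt2, Meis3, Tbx3 and Pax9, were named after their values were seen. Gene coordinates are from GENCODE vM1 on mm9, 1-based, and promoter sequences are from RefSeq on GRCm38.p6. Protein sequences were not used here, and a few genes that the lists or this rule cover are not reported here. Alternatives were pseudocounts of 0.5 and 5, no filter, median-of-ratios rescaling, limma voom, limma without trend and robust, no day factor, the replicate block, and leaving out each replicate, each day, or day 16 replicates 2 and 3.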

Additional observations from a re-analysis of the deposited data

How the results depend on the processing

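Gene counts depended on the libraries. Slope differences, 26 as reported, were 2 without day 16 replicates 2 and 3, 1 without day 0, 8 without day 5, 14 without day 9, 12 without day 12 and 0 without day 16 (1145 at an unadjusted p under 0.05), and 2 to 35 without 1 replicate. Exp slopes, 622 as reported, were 1036 with the replicate block (540 shared), 9 without day 0, 1381 without day 5, 371 without day 12 and 72 without day 16, and 249 to 466 without 1 replicate. Ctl slopes, 0 as reported, were 1 with the replicate block, 1 without day 16 replicates 2 and 3, and 0 to 2 without 1 replicate. Day 16 differences, 765 as reported, were 4326 from replicates 2 and 3 alone and 197 to 1599 without 1 replicate. The replicate block made no call among the members (Hand2 exp slope 0.97, limma adjusted p = 0.132) and the calls of the named listed genes held under it. It added calls within the lists, which the report gives beside the lists' own counts. Of 210 member slope differences over 21 alternatives none was called, and of 200 exp slopes over 20 alternatives 1 was, Hand2 without day 16 replicates 2 and 3 (1.28). Signs turned in 23 and 25 of these values, none of them called, and the cause was not tested. Without day 16 replicates 2 and 3 the slope differences were 0.025 for Sim2, 0.056 for Meis1, 0.67 for Meis2, -0.38 for Tbx15, 0.12 for Twist1 and 0.054 for Gata2. Without day 16 they were 0.15 for Sim2, 0.14 for Meis1, 0.56 for Meis2, -0.40 for Tbx15, 0.047 for Prrx1, 0.27 for Twist1 and 0.11 for Gata2. Meis1 had 0.16 without day 0, 0.0078 without day 5, 0.0070 with a pseudocount of 5 and -0.017 to 0.0055 without 1 replicate, and Meis2 0.024 without day 0 and -0.37 to 0.18 without 1 replicate. The exp slope of Sim2 was -0.13 by limma voom, -0.036 without day 0, -0.031 without day 5 and -0.19 without day 20. That of Meis1 was 0.0062 after median-of-ratios rescaling, 7.97e-05 without day 5 and 0.039 without day 16. That of Meis2 was 0.0053 with a pseudocount of 5, 0.059 after rescaling, 0.25 with the replicate block, 0.63 without day 16 replicates 2 and 3 (limma adjusted p = 0.0593), 0.054 without day 5, 0.54 without day 16 and -0.26 to 0.23 without 1 replicate. That of Tbx5 was -0.19 with the replicate block, -0.28 without day 16 replicates 2 and 3, -0.27 without day 0, -0.043 without day 5, -0.079 without day 16 and -0.11 to 0.20 without 1 replicate. That of Tbx15 was -0.32 without day 16 replicates 2 and 3 and -0.32 without day 16, and that of Twist1 0.086 without day 16. The Prrx1 day 16 difference, 0.0088 as reported, was -0.056 to 0.13 without 1 replicate. Depth limits the low members most: Alx1 up to day 12 in exp rests on 8 to 11 reads, and its day 16 difference was -1.87 log2 with a pseudocount of 5 and -4.17 log2 by limma voom, against -3.19 as reported.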
